A study of Caenorhabditis elegans with 2 samples.

Results

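The genes described here are 34 panneuronal and presynaptic genes of Caenorhabditis elegans, taken from a list of names, out of 19973 protein-coding genes on the 6 nuclear chromosomes in Ensembl release 115 (WBcel235, the sequence of ce11). The list is of genes for the machinery of the presynaptic terminal and for other proteins made by many neurons. Membership was by gene name and used no signal value, though the list was chosen with results of these data known. Of the 34 names, 34 matched an annotated gene. The data were regions of DNA recovered by chromatin immunoprecipitation and sequencing (ChIP-seq) of ALR-1, a homeodomain protein of the Aristaless type, fused to the fluorescent protein eGFP. Both samples, replicates 1 and 2, were whole L2 larvae of mixed sex from the strain OP200, genotype unc-119(ed3) III; wgIs200. They formed 1 group, so no condition could be set against another and no test was made. Both samples carried the unc-119 mutation and the integrated transgene wgIs200 with tagged alr-1, and no allele of the worms' own alr-1 gene is listed. Whole worms were used, so the cells in which a region was bound are unknown. A region belonged to a gene when the gene had the nearest protein-coding transcript start, or when the region's point, the position at its middle, lay within the gene body.

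Neurons release transmitter when vesicles fuse with the membrane at the active zone. Fusion is driven by SNARE proteins, and vesicles are brought to the site by kinesins, held there by scaffold proteins and recovered by endocytosis. Neuropeptides leave the cell from dense core vesicles after processing by dedicated enzymes. In C. elegans many of these genes are expressed across the nervous system, and some have several enhancers that act redundantly. ALR-1 itself is known for roles in a few sensory and motor neuron types.

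The authors deposited a pooled list of 12996 candidate regions, candidate lists of 5071 regions for replicate 1 and 7568 for replicate 2, and a list of 103 peaks that passed the irreproducible discovery rate (IDR), which keeps regions that rank alike in replicates. The candidate lists include background regions as input for IDR, so presence in them does not amount to a called peak. Each region carries a signal value from the authors' peak caller, whose scale is not stated. The signal was used only to rank regions within a list, with rank 1 the strongest. In the pooled list it reached 49.8, the 500th region had 13.6, and the weakest IDR peak had 21.3. Read depth is unknown.

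The DNA at the strongest regions of the set is shown first, followed by the strongest regions with TAATTA, which were chosen for those letters. Each sequence is the ce11 plus strand, 5′ to 3′, from 100 bp before to 100 bp after the point of the region, read from the WBcel235 genome. Capitals mark TAAT and its reverse complement ATTA, the core letters read by many homeodomain proteins. The first 9 are from the 11 member regions among the 500 strongest of the pooled list, in order of rank, with those of unc-108 and tom-1 not shown. Their ranks are 3 (syd-2), 206 (unc-10), 275 (unc-104), 276 (unc-2), 280 (unc-18), 289 (rgef-1), 324 (sad-1), 442 (egl-21) and 466 (ida-1).
syd-2 (chrX:10555500-10555700): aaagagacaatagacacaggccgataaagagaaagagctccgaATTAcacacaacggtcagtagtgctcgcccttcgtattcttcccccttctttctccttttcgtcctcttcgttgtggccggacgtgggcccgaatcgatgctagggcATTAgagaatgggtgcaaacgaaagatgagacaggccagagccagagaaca
unc-10 (chrX:7284846-7285046): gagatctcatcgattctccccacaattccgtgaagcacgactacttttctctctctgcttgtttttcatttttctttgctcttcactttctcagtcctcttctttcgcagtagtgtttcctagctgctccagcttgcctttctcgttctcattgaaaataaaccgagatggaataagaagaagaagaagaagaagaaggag
unc-104 (chrII:6993024-6993224): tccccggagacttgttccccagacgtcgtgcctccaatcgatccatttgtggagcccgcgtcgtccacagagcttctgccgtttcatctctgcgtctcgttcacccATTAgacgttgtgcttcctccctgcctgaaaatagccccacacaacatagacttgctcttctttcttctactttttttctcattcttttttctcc
unc-2 (chrX:2729101-2729301): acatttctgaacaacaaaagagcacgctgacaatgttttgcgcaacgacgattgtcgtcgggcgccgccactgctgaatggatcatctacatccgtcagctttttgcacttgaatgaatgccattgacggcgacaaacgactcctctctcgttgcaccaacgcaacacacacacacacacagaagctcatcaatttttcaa
unc-18 (chrX:7682502-7682702): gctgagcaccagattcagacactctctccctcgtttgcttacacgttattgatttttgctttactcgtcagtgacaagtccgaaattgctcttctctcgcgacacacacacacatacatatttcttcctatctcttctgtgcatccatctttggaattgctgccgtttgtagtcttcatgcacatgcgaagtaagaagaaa
rgef-1 (chrV:9561886-9562086): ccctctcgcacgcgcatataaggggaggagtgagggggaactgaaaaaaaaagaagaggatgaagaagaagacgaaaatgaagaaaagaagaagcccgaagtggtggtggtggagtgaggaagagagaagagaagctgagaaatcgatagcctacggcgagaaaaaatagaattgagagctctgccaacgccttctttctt
sad-1 (chrX:13493955-13494155): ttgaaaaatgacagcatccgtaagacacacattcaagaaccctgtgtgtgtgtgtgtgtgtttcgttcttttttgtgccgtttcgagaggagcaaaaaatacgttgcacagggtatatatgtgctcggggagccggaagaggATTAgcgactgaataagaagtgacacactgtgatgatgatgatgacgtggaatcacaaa
egl-21 (chrIV:10481826-10482026): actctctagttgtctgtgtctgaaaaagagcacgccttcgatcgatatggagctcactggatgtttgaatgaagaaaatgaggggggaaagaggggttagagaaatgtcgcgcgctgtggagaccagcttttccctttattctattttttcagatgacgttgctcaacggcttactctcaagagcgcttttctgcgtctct
ida-1 (chrIII:5758800-5759000): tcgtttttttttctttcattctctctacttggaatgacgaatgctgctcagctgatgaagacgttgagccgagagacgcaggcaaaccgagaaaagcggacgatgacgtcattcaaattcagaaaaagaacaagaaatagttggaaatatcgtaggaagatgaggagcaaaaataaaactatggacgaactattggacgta
The next 3 are from the strongest member regions that hold TAATTA, which is its own reverse complement. They have ranks of 2973 (unc-2, intron), 2996 (syd-1, intron) and 3224 (snt-1, downstream of the gene).
unc-2 (chrX:2742731-2742931): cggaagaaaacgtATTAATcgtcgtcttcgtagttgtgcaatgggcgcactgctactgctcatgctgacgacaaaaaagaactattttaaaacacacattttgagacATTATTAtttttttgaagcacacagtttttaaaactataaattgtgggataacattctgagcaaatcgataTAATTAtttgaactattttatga
syd-1 (chrII:7588434-7588634): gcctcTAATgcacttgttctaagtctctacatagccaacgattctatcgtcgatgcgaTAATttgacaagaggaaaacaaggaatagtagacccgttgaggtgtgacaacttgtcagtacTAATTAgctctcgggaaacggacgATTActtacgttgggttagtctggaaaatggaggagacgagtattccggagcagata
snt-1 (chrII:6821855-6822055): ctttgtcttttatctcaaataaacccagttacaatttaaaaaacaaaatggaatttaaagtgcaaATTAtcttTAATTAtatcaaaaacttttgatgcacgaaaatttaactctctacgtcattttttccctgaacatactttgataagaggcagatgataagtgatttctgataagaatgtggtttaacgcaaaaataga
Of the 11 strongest regions, those of syd-2 (2 places), unc-104 (1 place) and sad-1 (1 place) hold TAAT or ATTA, and none holds TAATTA. The 3 weaker stretches have TAATTA by choice, and have TAAT or ATTA at 6 places (unc-2), 5 places (syd-1) and 3 places (snt-1). Each TAATTA holds both TAAT and ATTA, so the choice raises these counts and they cannot be set against those of the strongest regions.

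Nearly all of the genes had candidate ALR-1 regions, and several had strong ones. Of the 34 genes, 32 (94.1%) had a region in the pooled list, against 39.0% of all protein-coding genes. These are candidates, and at some genes even the best one was weak. Its deposited −log10 q-value was 0.371 at cpx-1, 0.520 at unc-11 and 0.762 at tbb-4. On that scale higher is stronger, and 9 of the 134 member regions were at the ceiling of 2.9. A pooled region that overlapped a region of each replicate lay at 18 of the 34 genes (52.9%), against 7.04% of all genes. One of the 500 strongest pooled regions lay at 11 of the 34 (32.4%), against 2.47% of all genes. Those 11 genes were syd-2, unc-108, unc-10, unc-104, unc-2, unc-18, tom-1, rgef-1, sad-1, egl-21 and ida-1. An IDR peak lay at 1 of the 34 (2.94%), the scaffold gene syd-2, against 0.521% of all genes. With the replicate lists on their own, 25 of the 34 (73.5%) had a region in replicate 1, against 20.04% of all genes, and 33 of the 34 (97.1%) in replicate 2, against 25.7%. The 2 lists are thus unequal, the larger one reaching all of the genes but rpm-1. The list was chosen with results of these data known, so these shares are a description.

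**Figure D1:**
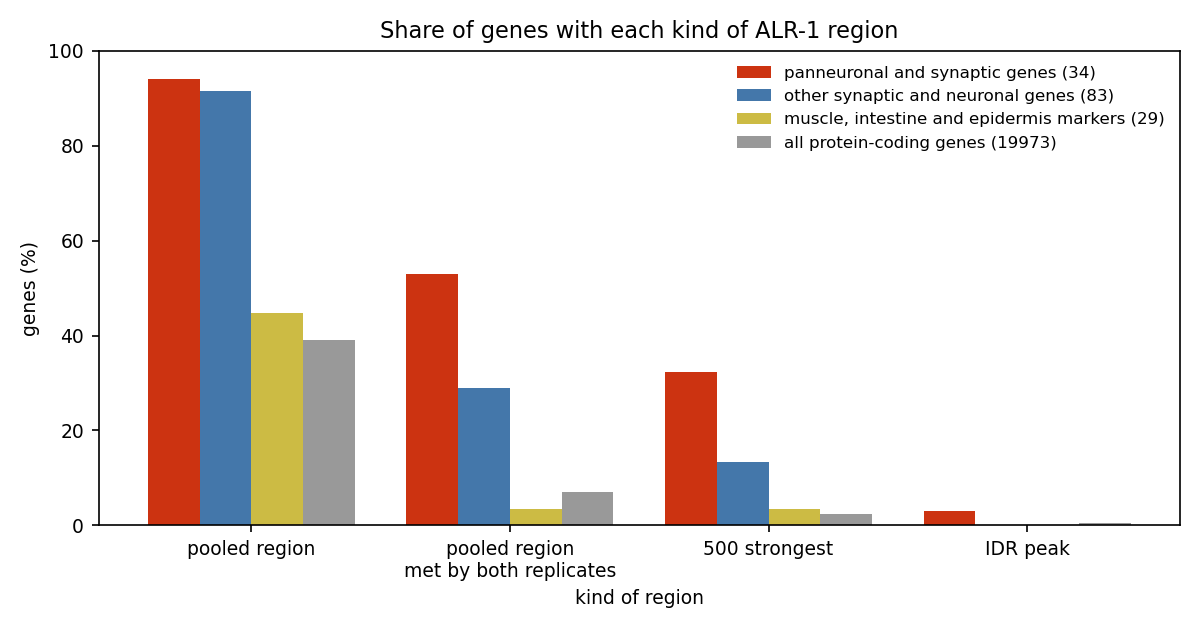
Share of genes (percent, vertical axis) with each kind of ALR-1 region, for the 34 panneuronal and synaptic genes, 83 other synaptic and neuronal genes, 29 markers of other tissues and all 19973 protein-coding genes. For a region overlapping each replicate the shares are 52.9%, 28.9%, 3.45% and 7.04%, and for an IDR peak 2.94%, 0.0%, 0.0% and 0.521%. Bars are single shares over genes and carry no error.

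The active zone and synapse assembly genes had the strongest region of the set, at syd-2. Of the 8, 4 had a region among the 500 strongest, against 2.47% of all genes. Liprin-alpha, the product of syd-2, is a scaffold on which presynaptic sites assemble. Its IDR peak at chrX:10555440-10555759 had a pooled signal of 43.8 and ranked 3 of 12996. The overlapping region of replicate 1 had a signal of 9.15 and rank 97, and that of replicate 2 had 28.6 and rank 3. Its point lay 361 bp upstream of a syd-2 start, and the gene (chrX:10549106-10555239, minus strand) had 3 further regions. The one of rank 1126 overlapped the peak itself and the same replicate regions, so it is no separate site, and the other 2, in exons, had ranks of 10252 and 10768 and no counterpart in either replicate. The high value of syd-2 therefore came from 1 stretch of its promoter.

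RIM, encoded by unc-10, tethers vesicles and calcium channels at the active zone. It had 9 regions, the strongest at chrX:7284786-7285105, 4624 bp upstream, with a pooled signal of 17.8 and rank 206. In replicate 1 the signal there was 5.67 (rank 492) and in replicate 2 it was 7.25 (rank 903). A further strong region, in an intron 316 bp downstream of a start (pooled signal 13.4, rank 526), was met only in replicate 2, where it had a signal of 14.6 and rank 103. The replicates thus differed in which unc-10 region they ranked first.

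The gene unc-2 encodes the CaV2-type calcium channel that triggers release, and it is the longest of the set, 52607 bp at chrX:2710920-2763526. All 11 of its regions lay within the gene body. The strongest, intronic at chrX:2729041-2729360, had a pooled signal of 16.4 (rank 276), 2.11 in replicate 1 (rank 4887) and 11.6 in replicate 2 (rank 240). It was near the bottom of the list in replicate 1 and near the top in replicate 2. SAD kinase, which acts in presynaptic differentiation and neuronal polarity, is encoded by sad-1. Its strongest region was also intronic (chrX:13493895-13494214), with a pooled signal of 15.7 (rank 324), 6.86 in replicate 1 (rank 257) and 8.70 in replicate 2 (rank 562). Here the replicates gave similar ranks.

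The remaining genes of the group had weaker regions or none. The long active zone protein clarinet (cla-1) had 4 regions, the best of rank 889, although its gene spans 39308 bp. The RhoGAP-like assembly protein SYD-1 had 3, the best of rank 2996, and the L-type calcium channel gene egl-19 had 3, the best of rank 4136. The ubiquitin ligase gene rpm-1, which restrains synapse growth, had no region in the pooled list or in either replicate list, over a span of 14557 bp.

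**Figure D2:**
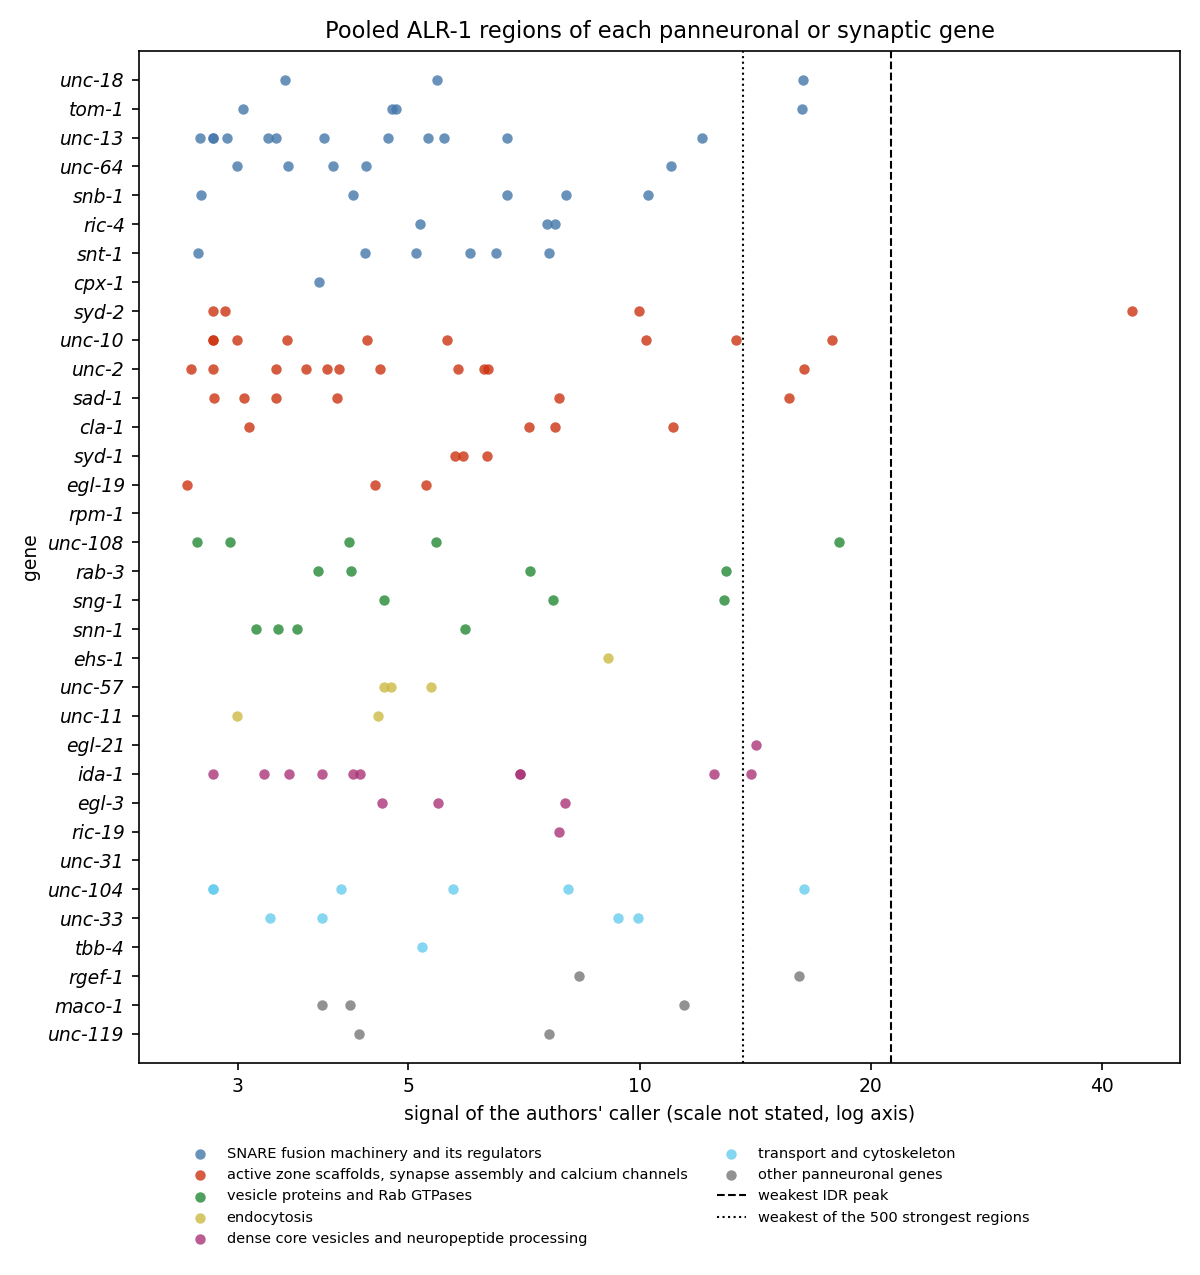
Signal of every pooled region (horizontal log axis, the authors' caller's units) for each of the 34 genes, coloured by role. The syd-2 peak at 43.8 stands to the right of all other points, the next being unc-108 at 18.2, and rpm-1 and unc-31 have no point. The dashed line marks the weakest IDR peak (21.3) and the dotted line the weakest of the 500 strongest regions (13.6).

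All 8 genes of SNARE fusion and its regulators had regions, and 2 of them, unc-18 and tom-1, had one among the 500 strongest. The shares over all genes were 39.0% and 2.47%. Munc18, the syntaxin-binding protein encoded by unc-18, is required for fusion. Its promoter region at chrX:7682442-7682761, 294 bp upstream of the start, had a pooled signal of 16.3 (rank 280). In replicate 1 it had a signal of 10.3 and rank 58, while no replicate 2 region overlapped it. The nearest replicate 2 region of the gene lay 753 bp upstream, with a signal of 4.64 and rank 2359. Of the 11 strongest regions this was the one met in a single replicate.

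Tomosyn, encoded by tom-1, is a SNARE protein that inhibits vesicle priming. The tom-1 region lay 2159 bp upstream of the start with a pooled signal of 16.3 (rank 281), 3.86 in replicate 1 (rank 1439) and 12.9 in replicate 2 (rank 161). The replicates both had it, at different depths of their lists. Munc13, the priming factor encoded by unc-13, had the most regions of any gene in the set, 12 over a span of 31332 bp. The best of them had rank 713, and 1 of the 12 overlapped a region of each replicate.

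The 3 core SNARE genes had weaker regions. Syntaxin (unc-64) had 5 regions, the best of rank 903 and matched in replicate 2 alone, where it had a signal of 10.4 and rank 338. Synaptobrevin (snb-1) is the shortest gene of the set at 940 bp, yet it had 5 regions, all upstream, from 236 to 3849 bp before the start, the best of rank 1055. SNAP-25 (ric-4) had 3, the best of rank 1984 and matched in both replicates. The calcium sensor synaptotagmin (snt-1) had 6, the best of rank 2077, of which 3 lay 10226 to 11505 bp past its start, beyond the gene's end. Complexin (cpx-1), a clamp on the SNARE complex, had 1 region of rank 7079.

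Among the vesicle proteins and Rab GTPases all 4 had regions, and 3 had a region met in each replicate. Over all genes these shares were 39.0% and 7.04%. The GTPase RAB-2, encoded by unc-108, acts in dense core vesicle maturation. Its promoter region, 55 bp upstream of the start, was the second strongest of the set, with a pooled signal of 18.2 (rank 186), 6.95 in replicate 1 (rank 247) and 12.0 in replicate 2 (rank 208). As plain numbers its ranks were the closest in the 2 replicates among the 11 strongest regions. The 2 lists differ in length (5071 and 7568 regions), so equal ranks are not equal places in them. The vesicle GTPase gene rab-3 had its best region at an internal promoter (signal 13.0, rank 577), and synaptogyrin (sng-1), an integral vesicle protein, had its best in the promoter (signal 12.9, rank 591). Synapsin (snn-1), which links vesicles to the cytoskeleton, had 4 regions upstream of the gene, the best of rank 3319, and none was met in replicate 1.

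Dense core vesicle genes had regions at 4 of 5, against 39.0% of all genes. Carboxypeptidase E, encoded by egl-21, trims neuropeptides after cleavage. It had a single region, in the promoter 82 bp upstream of the start at chrIV:10481766-10482085. That region had a pooled signal of 14.2 (rank 442), 6.97 in replicate 1 (rank 242) and 10.1 in replicate 2 (rank 357). The vesicle membrane protein IA-2, encoded by ida-1, had 10 regions, 9 of them in the gene body. The strongest was intronic, at chrIII:5758740-5759059, with a pooled signal of 14.0 (rank 466), 7.71 in replicate 1 (rank 156) and 5.92 in replicate 2 (rank 1451). A neighbouring intronic region had rank 641 and was met in each replicate too. The proprotein convertase gene egl-3 had 3 regions upstream, the best of rank 1873, none met in replicate 1. The single region of ric-19, which encodes an ICA69-type protein of dense core vesicle biogenesis, had rank 1949 and lay 153 bp from the ric-19 start and 275 bp from that of pmlr-1.

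The vesicle release factor CAPS, encoded by unc-31, had no pooled region over a span of 14488 bp. Each replicate list had 1 weak region of it, an intronic one of rank 4957 in replicate 1 and one 3338 bp upstream of rank 4170 in replicate 2. These did not overlap.

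The transport genes all had regions, against 39.0% of all genes. KIF1A, the kinesin encoded by unc-104 that carries synaptic vesicle precursors, had 6. The strongest, at chrII:6992964-6993283 and 1863 bp upstream, had a pooled signal of 16.4 (rank 275), 7.86 in replicate 1 (rank 142) and 6.60 in replicate 2 (rank 1143). The axonal CRMP protein gene unc-33 had 4 regions, the best of rank 1136, and the beta tubulin gene tbb-4 had 1, of rank 4192. Of the other panneuronal genes, rgef-1, which encodes a RasGRP-type exchange factor and whose promoter is widely used to drive genes in all neurons, had a promoter region at chrV:9561826-9562145, 312 bp upstream. Its pooled signal was 16.1 (rank 289), with 3.16 in replicate 1 (rank 2214) and 13.5 in replicate 2 (rank 135). Macoilin (maco-1), a membrane protein of neurons, had a promoter region of rank 824 met in each replicate. The lipid-binding chaperone gene unc-119 had 2 intronic regions, of ranks 2076 and 5632, each met in a different replicate. The strain carries a mutant unc-119 allele, and whether the transgene brings in another copy of the gene is not given in the sources used here. What this does to the 2 values was not tested.

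The median of the genes' best signals was lowest for the endocytosis genes, 5.36, and 0 of the 3 had a region met in each replicate or among the 500 strongest. Over all genes those shares were 7.04% and 2.47%. The Eps15-type adaptor gene ehs-1 led the group with 1 promoter region (pooled signal 9.09, rank 1438), which had a signal of 8.72 (rank 561) in replicate 2 and no counterpart in replicate 1. The endophilin gene unc-57 had 3 regions, the best of rank 4018, and the clathrin adaptor AP180 gene unc-11 had 2, the best of rank 5233. With 3 genes this is a count and not a difference between roles. The median span was 4316 bp in this group, the shortest of the roles, and 13138 bp in the active zone group, the longest. The part of span in the order of the roles was not tested.

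The set had a longer median span than all genes, and long genes had more regions. The median span of the 34 genes was 6987 bp, against 2027 bp for all protein-coding genes, and the median number of pooled regions was 3, against 0. Without replicate 1 the median was 2 regions, and without replicate 2 it was 1. At least 9 regions were found at 4 of the 34 genes (unc-13, unc-2, ida-1 and unc-10), against 91 of all 19973. Per 10 kb of summed gene body, 2.36 region points lay in the 34 genes, against 1.03 in all genes. Within classes of span the shares were as follows. Of the 2 members under 2 kb, snb-1 and cpx-1, both had a pooled region, against 27.1% of all genes of that span, and 0 had one of the 500 strongest, against 1.46%. Of the 12 members from 5 to 10 kb, 12 had a pooled region, against 61.9% of all genes of that span, and 3 had one of the 500 strongest, against 4.52%. Of the 9 members from 2 to 5 kb, 9 had a pooled region, against 42.6%, and 3 had one of the strongest, against 2.37%. Of the 11 members of 10 kb or longer, 9 had a pooled region, against 80.1%, and 5 had one of the strongest, against 8.62%. In that longest class the share with any region was thus near that of all genes, while 7 of the 11 had a region met in each replicate, against 22.8%. The single IDR peak, at syd-2, lay in the class of 5 to 10 kb, where 0.895% of all genes had one. The other 3 classes had 0. Over all genes their shares were 0.335% under 2 kb, 0.494% from 2 to 5 kb and 1.7% from 10 kb. The part of span in the counts over the whole set was not tested further.

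**Figure D3:**
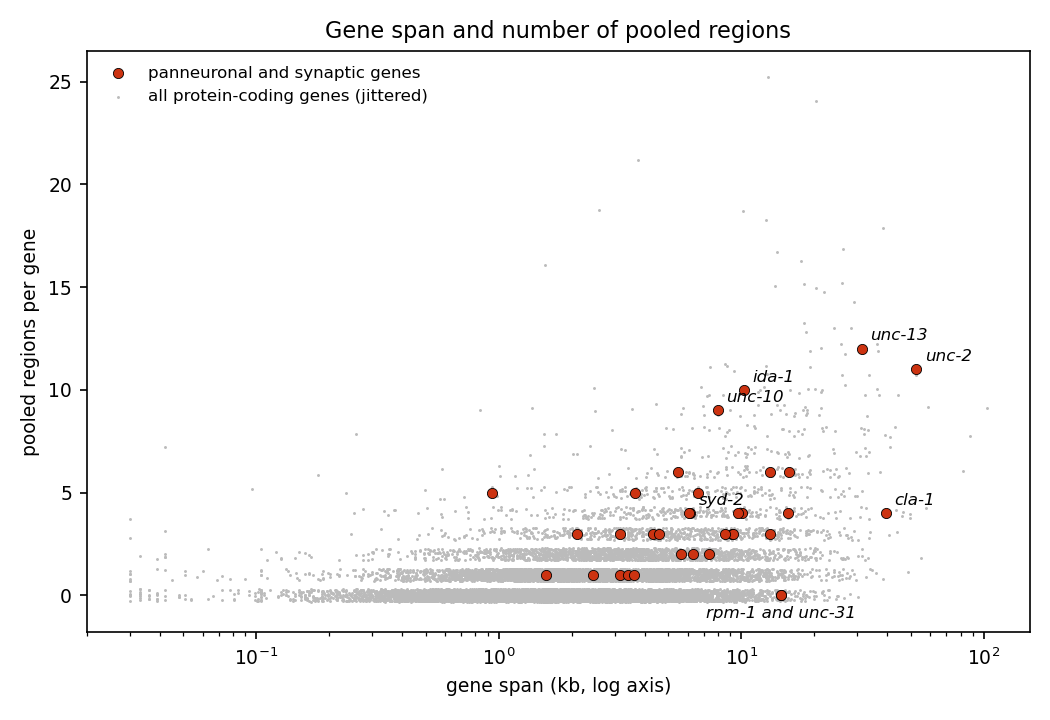
Gene span (horizontal log axis, kb) and number of pooled regions per gene for the 34 genes (red) and all protein-coding genes (grey, moved slightly up or down at random so that points can be seen). The genes unc-13 with 12 and unc-2 with 11 regions are long, snb-1 has 5 regions at a span of 940 bp, and rpm-1 and unc-31 lie at 0.

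The share of regions in introns was higher, and that in promoters lower, at these genes than in the pooled list as a whole. In all, 134 pooled regions belonged to the 34 genes. Because 9 of them overlapped the region before them in the same gene, they covered 125 separate stretches. A promoter, from 1000 bp upstream to 200 bp downstream of any protein-coding start, held 37 of the 134 points (27.6%, exact Clopper-Pearson 95% interval 20.2% to 36.0%), against 40.3% of all pooled regions. Introns held 52 (38.8%), against 21.6%, exons 16 (11.9%), against 11.8%, and intergenic sequence 29 (21.6%), against 26.4%. The members had a longer median span than all genes, and longer genes can offer more intron. The part of span in these shares was not tested. The interval treats regions as independent and covers counting error only, and regions of 1 gene share that gene. Taken per gene, 24 of the 34 (70.6%) had a region in a promoter of their own, against 25.97% of all genes. The nearest protein-coding start was that of the member itself for 124 of the 134 regions. Of the 11 strongest regions 5 lay in promoters (syd-2, unc-108, unc-18, rgef-1 and egl-21), 3 in introns (unc-2, sad-1 and ida-1) and 3 in intergenic sequence upstream (unc-10, unc-104 and tom-1).

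**Figure D4:**
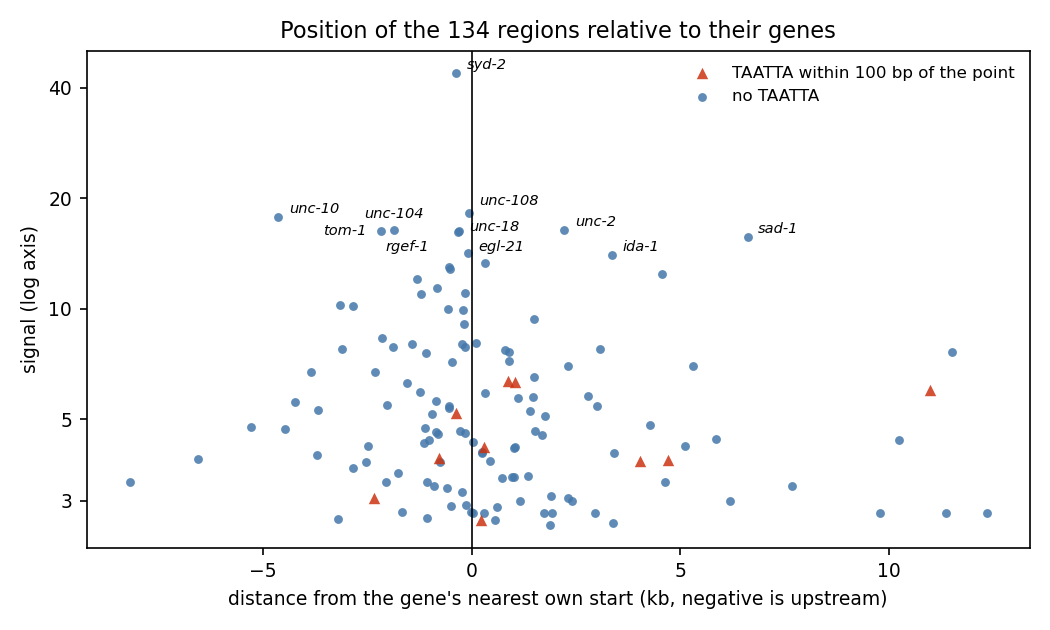
Signal (vertical log axis, the authors' caller's units) of the 134 pooled regions against the distance of their point from the nearest start of their own gene (kb, upstream to the left). The 11 regions among the 500 strongest are named and lie from 4624 bp upstream (unc-10) to 6607 bp downstream (sad-1), and the 10 regions with TAATTA (triangles) have signals of 6.35 or lower.

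The members' regions were met in replicate 2 more often than pooled regions in general. Of the 134 regions, 89 (66.4%) overlapped a region of replicate 2, against 48.6% of all pooled regions. For replicate 1 the number was 41 (30.6%), against 30.9%. Both replicates met 29 regions (21.6%), against 13.3%, and neither met 33 (24.6%), against 33.8%. The 29 rest on 25 distinct pairs of replicate regions, since neighbouring pooled regions can share one. Of the 11 strongest regions 10 (90.9%) overlapped each replicate, against 361 of the 500 strongest (72.2%). Taking as many of the strongest regions of a single replicate as there are IDR peaks, replicate 1 gave 2 of the 34 genes, unc-18 and syd-2, and replicate 2 gave 2, syd-2 and unc-10. Of all genes 0.511% had such a region in either replicate. In these sets of 103, syd-2 was the gene that recurred.

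**Figure D5:**
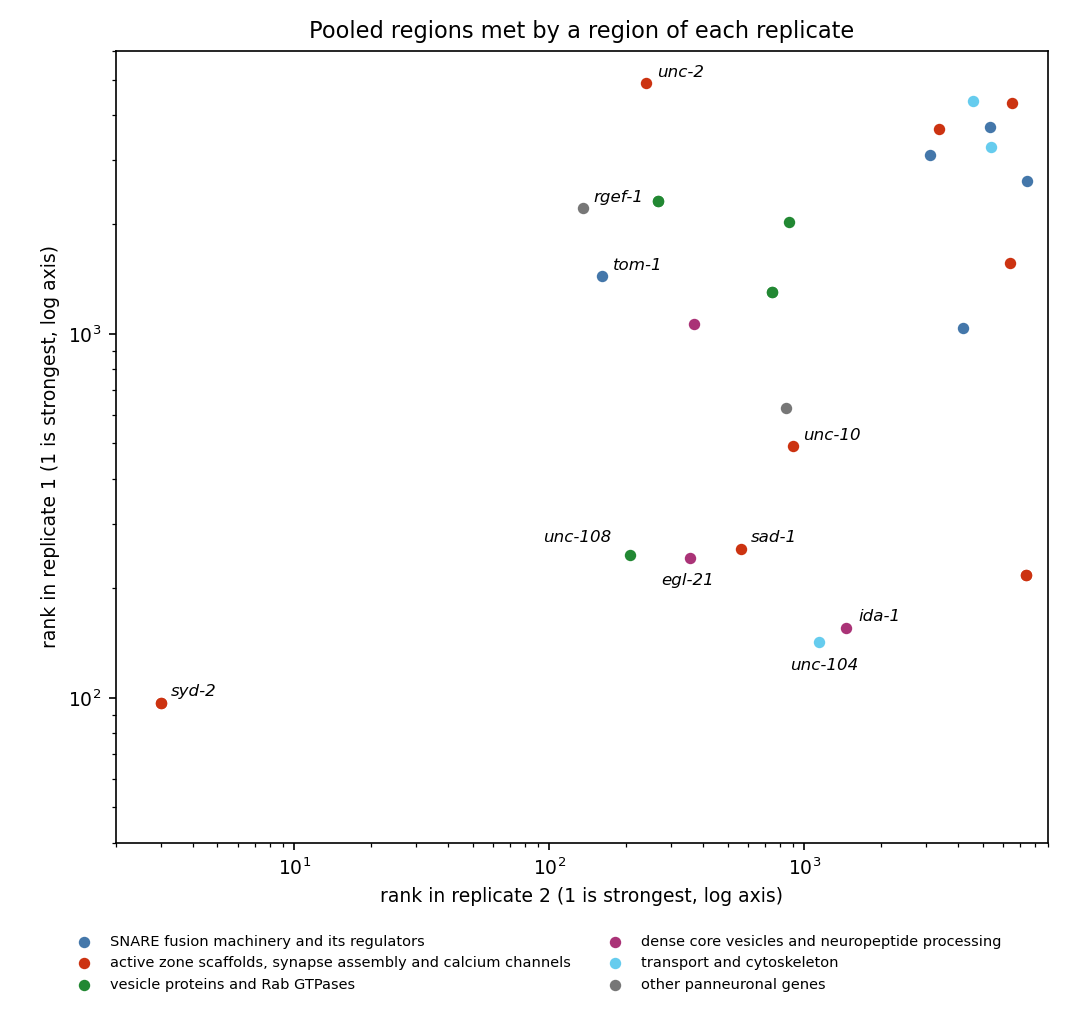
Rank in replicate 1 against rank in replicate 2 (log axes, 1 is the strongest) for the member regions that overlap a region of each, coloured by role, with the regions among the 500 strongest named. The 29 regions show 25 distinct pairs of ranks, syd-2 stands alone at ranks 97 and 3, and unc-2 at ranks 4887 and 240 shows how far the replicates can part.

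In the pooled list TAATTA was found in about the same share of these regions as of all regions. TAATTA lay within 100 bp of the point in 10 of the 134 regions (7.46%, exact Clopper-Pearson 95% interval 3.64% to 13.3%), against 7.97% of all pooled regions. The 10 belonged to 7 genes: 2 each to unc-2, snt-1 and maco-1, and 1 each to ida-1, sad-1, syd-1 and tbb-4. Their signals ran from 2.66 to 6.35 and their ranks from 2973 to 12454, so none was among the 500 strongest. Of the 11 strongest member regions 0 held TAATTA, against 32 of the 500 strongest (6.4%). The shorter letters TAAT or ATTA, counted after the data had been seen, were in 83 of the 134 regions (61.9%), against 80.5% of all pooled regions. They were in 3 of the 11 strongest (27.3%), against 62.2% of the 500. GC content also differed between these groups of regions. Its median was 46.3% in the 11 strongest, ranging from 37.3% to 50.7%, against 43.3% in the 500, and 39.3% in the 134 regions, against 37.8% in the whole list. Its part in the counts was not tested. The absence of these letters from a window says nothing about which protein bound there.

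A second list of 83 synaptic and neuronal genes outside the set gave a similar share of genes with any region and lower shares for the stricter calls. A pooled region lay at 94.1% of the 34 genes, against 76 of the 83 others (91.6%). A region met in each replicate lay at 52.9%, against 24 of 83 (28.9%), and one of the 500 strongest at 32.4%, against 11 of 83 (13.3%). An IDR peak lay at 2.94%, against 0 of 83. The median span was 6987 bp in the 34 genes, against 6546 bp in the others, so both lists hold genes of about the same length. Whether the lists differ was not tested, since the members were chosen with results known. Among 29 markers of body wall muscle, intestine and epidermis, 13 (44.8%) had a pooled region, 1 (3.45%) had a region met in each replicate and the same count had one of the 500 strongest. The marker with both was elt-1, a GATA factor gene of the epidermis. The same shares over all genes were 39.0%, 7.04% and 2.47%. The spans of the markers were not computed, so the part of gene length in their shares was not tested.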

How the data were processed

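ChIP-seq regions of eGFP-tagged ALR-1 came from 2 biological replicates, 1 group. Per the labels, regions were called on each replicate and on both together as input for IDR. The signal of each region is the value the authors' caller deposited, on a scale that is not stated, and the deposited q-values are −log10 values by the format of the files. The −log10 q-values stop at 2.9, a ceiling shared by 9 of the 134 member regions and 402 of all 12996, so the signal was used for ranks. The sources used here do not give the aligner, the caller, the IDR threshold or the read depth. The control library was not analysed here. The lists on ce10 were not used.

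From the ce11 lists, a region was given to the protein-coding gene with the nearest transcript start and to any gene whose body held its point. Regions of different lists were matched at a minimum overlap of 1 bp. Gene names were matched to Ensembl symbols: 34 of 34 members, 83 of 84 other genes and 29 of 30 tissue markers. No statistical test was made, because the samples form 1 group and the members and lists were chosen with earlier results of these data known. Genes given in full were those with an IDR peak, those with a region among the 500 strongest and the strongest of each role. Other genes were given by counts and best ranks. Tables were handled in Python 3.11.15 with pandas 2.3.3 and numpy 2.4.6, exact intervals came from scipy 1.17.1, and plots from matplotlib 3.10.9. The assignment code was tested on simulated data. Alternatives covered the assignment rule, gene span, overlap, promoter and motif windows, other IDR sets and each replicate alone.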

Additional observations from a re-analysis of the deposited data

How the results depend on the processing

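The share of members with any pooled region ran from 67.6% to 97.1% under each assignment rule, for long genes only and in each replicate alone. It was 94.1% with nearest starts within 3000 bp, against 34.2% of all genes, and 67.6% with gene bodies only, against 20.5%. For genes of 5 kb or longer it was 91.3%, against 67.5% of all such genes. Counting only points in gene bodies changed other results. Of members 0.0% then had an IDR peak (the syd-2 peak is upstream), against 0.145% of all genes. A region met in each replicate lay at 29.4%, against 2.58% of all genes, and the median of members was 2 regions. The IDR share of 2.94%, against 0.521% of all genes, was 32.4% for the 500 strongest regions, against 2.47%. For the strongest regions of each replicate alone it was 5.88%, against 0.511%. The median of 3 regions ranged from 1 to 2 in single replicates. The promoter share of 27.6% was 17.2% with a window of 500 bp upstream and 100 bp downstream, against 27.6% of all regions, and 43.3% with 2000 bp upstream, against 55.5%, so it was lower than that of all regions at each width. The TAATTA share was 2.99% within 50 bp of the point, against 4.22%, and 22.4% within 250 bp, against 20.7%. Without replicate 1 the TAATTA share was 5.94%, against 7.74% of all regions, and the promoter share 30.7%, against 43.5%. Without replicate 2 they were 4.44%, against 7.06%, and 31.1%, against 40.7%. No paired analysis was possible because both samples belong to 1 group. Read depth is unknown, so what it limits cannot be given.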

Other observations

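Outside the set, 5 of the 19 transport and cytoskeleton genes of the second list (26.3%) had a region among the 500 strongest, against 2.47% of all genes. The kinesin cargo adaptor gene unc-16 had a promoter region with a pooled signal of 19.2 (rank 156), at ranks 70 in replicate 1 and 210 in replicate 2. The kinesin-binding gene unc-14 had a promoter region of signal 16.3 (rank 279), also met in each replicate. The light chain gene klc-2 had an intronic region of signal 16.8 (rank 256), at rank 3536 in replicate 1 and 105 in replicate 2. The scaffold gene jip-1 had an intronic region of signal 15.9 (rank 304), met in replicate 2 alone. The tubulin gene tbb-2 had a promoter region of signal 19.3. The kinesin heavy chain gene unc-116 was among the 14 without one, with a best rank of 981.

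Of the 12 ion channel genes of that list 3 had a region among the 500 strongest, against 2.47% of all genes. The sodium leak channel complex gene unc-80 had the strongest region of the second list, in its promoter, with a signal of 20.2 (rank 129), met in replicate 2 alone at rank 41. An intronic region of unc-79 had a signal of 18.4 (rank 179), was met in each replicate and held TAATTA. The innexin gene unc-9 had an intergenic region of signal 16.9, 5255 bp upstream, met in replicate 2 alone at rank 121. The remaining genes of the second list among the 500 strongest were pamn-1, aex-3 and dpy-23. The pamn-1 region (signal 19.0) had rank 27 in replicate 1 and 3625 in replicate 2. That of aex-3 (signal 17.9) had rank 1031 in replicate 1 and 106 in replicate 2. That of dpy-23 (signal 14.6) had no counterpart in either replicate.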
